A study of Mus musculus with 5 samples.

Results

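The 9 genes described here act in retinoic acid synthesis, binding, reception and degradation, and were followed through the RNA of the mouse embryonic forebrain. They were Stra6, Dhrs3, Aldh1a2, Aldh1a3, Crabp1, Crabp2, Rara, Rarb and Cyp26b1, chosen by name, and each matched 1 row of the deposited count table. All 9 had enough counts to be tested, among 13989 genes tested in all. Forebrain tissue was taken at E12.5 from untreated C57BL/6 mice, 2 labelled wild type and 3 labelled EedcKO, described as littermates. In EedcKO mice Eed, a core gene of the histone-methylating Polycomb repressive complex 2, is deleted, by means that the sources used here do not give, nor do they give the deleted stretch. The comparison asked how transcript levels in the early forebrain differ when Eed is deleted.

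Retinoic acid is made inside cells from vitamin A. Retinol enters through transporters such as the one encoded by Stra6, is oxidised to retinaldehyde and then irreversibly to retinoic acid by the ALDH1A enzymes. It binds nuclear RAR receptors that sit with RXR partners on DNA, and CYP26 enzymes remove it. In the embryonic forebrain, sources such as the meninges and the lateral ganglionic eminence supply retinoic acid, which is known for its part in striatal differentiation.

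The receptors bind repeats of a short motif, and the classical example lies in the Rarb promoter. Promoter windows of RefSeq starts (250 bases before to 50 after, GRCm38.p6, the assembly also called mm10) were present for 7 of the 9 genes, with 15 windows in all. They were searched on both strands for AGGTCA, its variant AGTTCA, the form GGGTCA or the form GGTTCA, in pairs of 1 orientation with 5 letters between them (the DR5 arrangement). Rarb alone of the 7 had such a pair, in 1 of 15 windows, and the share among all 32851 windows was 0.0974%. Among the other retinoid genes listed for this work Cyp26a1, a second retinoic acid hydroxylase, also had one, on the opposite strand. Both sites are shown 5′ to 3′ on the strand of the gene, with the paired motifs in capitals:
Rarb: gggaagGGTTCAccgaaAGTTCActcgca
Cyp26a1: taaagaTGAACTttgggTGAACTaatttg
The Rarb stretch is chr14:16575507-16575535 on the minus strand, and its site lies 53 to 37 bases before the RefSeq start. GENCODE also annotates Rarb transcripts that start further upstream. The Cyp26a1 stretch is chr19:37697770-37697798 on the plus strand, with its site 32 to 16 bases before the start. A spacing of 1 or 2 letters was found in 0 of the 15 windows, against 0.222% and 0.268% of all windows. The motifs singly occurred in 4 of the 15 windows, of Rara, Rarb and Stra6, and in 43.7% of all windows. These letters are a description of the windows and not of receptor binding, and their absence from a window says nothing about the gene.

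The libraries held 4820630 to 5026381 counts, and the upper limit for a gene at 0, 3 counts, was 0.610 to 0.632 CPM. CPM here are counts scaled to a common library size with TMM factors, which even out composition. For Eed itself wild type 1 gave 404 counts, while the library labelled wild type 2 gave 238, within the 233 to 251 of EedcKO. This goes against its label if the deletion lowers these counts. The log2 fold change of Eed, EedcKO over wild type, was -0.40 (edgeR adjusted p = 0.412). As the deleted stretch is not given, Eed counts cannot settle the genotype of a library. The library labelled wild type 2 lay with wild type 1 for Nr2f2 and Ppp1r1b below, and within the EedcKO range for Rarb and Rxrg. Nr2f2 and Ppp1r1b are named because they passed in a fit that took this library as wild type. For them its likeness to wild type 1 follows in part from that choice and cannot settle its label. Each direction below thus has, on its wild-type side, this library with Eed at an EedcKO level. The 10 forebrain markers were detected in all 5 libraries and summed to 2187 to 2366 CPM, a sum over members that went both ways. Pax6, a dorsal progenitor factor, rose by 0.65 on the log2 scale (edgeR adjusted p = 0.0286), and dorsal Emx1 (0.98) and Lhx2 (0.39) were higher in every EedcKO library without passing. The ventral factors Dlx1 (-0.59) and Dlx2 (-0.46) and the anterior factor Six3 (-0.97) were lower in every EedcKO library, also without passing. Of the neural crest markers Sox10 fell by 3.49 (edgeR adjusted p = 0.0210), from 42 and 28 counts in wild type to 5, 1 and 3. The part of these shifts in the values of the 9 genes was not tested. Of 12 hindbrain and spinal cord markers, 2 were detected in wild type 1 and 9 to 12 in each other library. The library labelled wild type 2 stood apart in epithelial and choroid plexus markers. The 7 surface and olfactory epithelium markers summed there to 158 CPM, and elsewhere to no more than 20.0 (wild type 1 18.6, EedcKO from 11.5). Krt5, a keratin of basal epithelium, led with 428 counts, and Krt5 and Trp63 were at 0 in wild type 1. The 8 choroid plexus markers summed to 524 CPM there, to 131 CPM in wild type 1, and to between 24.8 and 177 CPM in EedcKO, with Ttr, Folr1 and Kl at 0 in EedcKO 3. EedcKO 2 and 3 carried Y-linked RNA (1670 and 1406 counts) and the other libraries Xist (3127 to 5239), so embryo sex also differed between the groups.

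**Figure D1:**
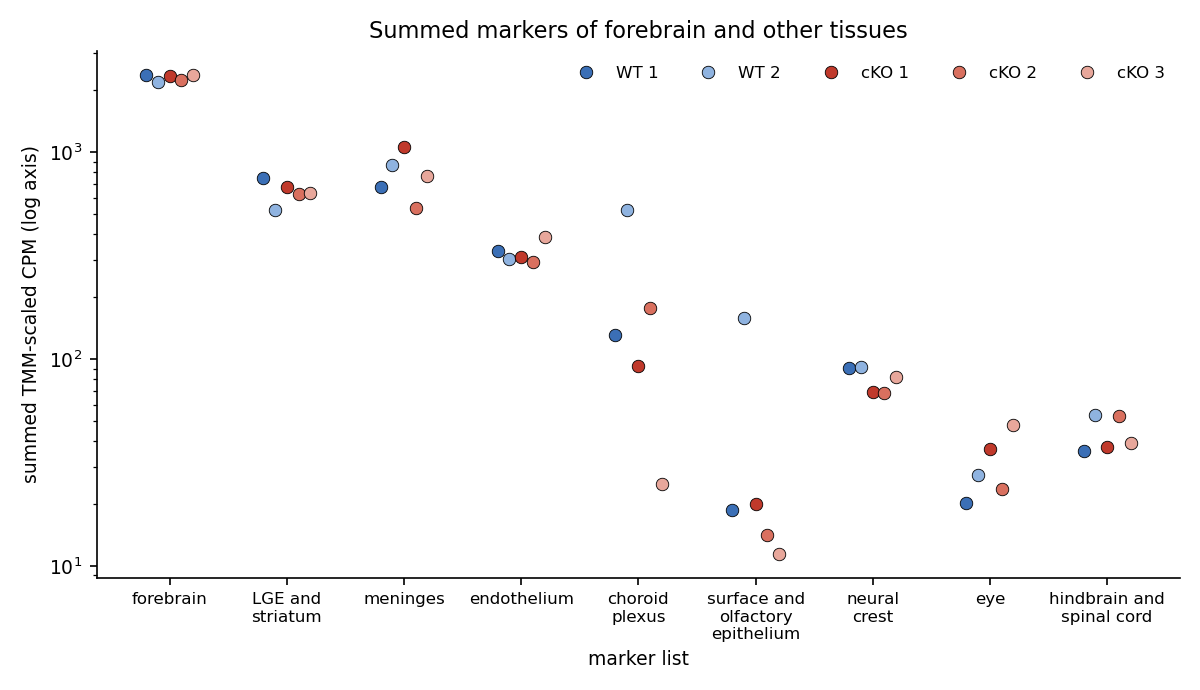
Summed TMM-scaled CPM (log axis) of each marker list in each library, with WT for wild type, cKO for EedcKO and LGE for the lateral ganglionic eminence. Forebrain sums lie together at 2187 to 2366, while the library labelled wild type 2 stands alone at 158 for surface and olfactory epithelium and at 524 for choroid plexus.

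All 9 genes had a negative log2 fold change, and 1 passed the test as lower in EedcKO. That gene was Stra6, at a wild-type level 2.35 times that of EedcKO. The background of such calls was 3.2% of tested genes in either direction and 2.17% as lower, and 48.4% of tested genes had a negative value. None of the 9 was called higher, where 1.04% of tested genes were. The median log2 fold change of the 9 was -0.67, and that of all tested genes 0.01. The EedcKO libraries lay below both wild-type libraries in 5 of the 9 (Stra6, Aldh1a2, Aldh1a3, Rara and Cyp26b1), as they did in 17.4% of tested genes. Groups did not overlap in either direction in 33.8% of tested genes, and in 16.4% EedcKO was higher. An unadjusted edgeR p under 0.05 was found for 6 of the 9, all lower, against 9.51% of tested genes as lower, 7.7% as higher and 17.2% in all. In bulk tissue, fewer cells of a type and less RNA per cell cannot be told apart.

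**Figure D2:**
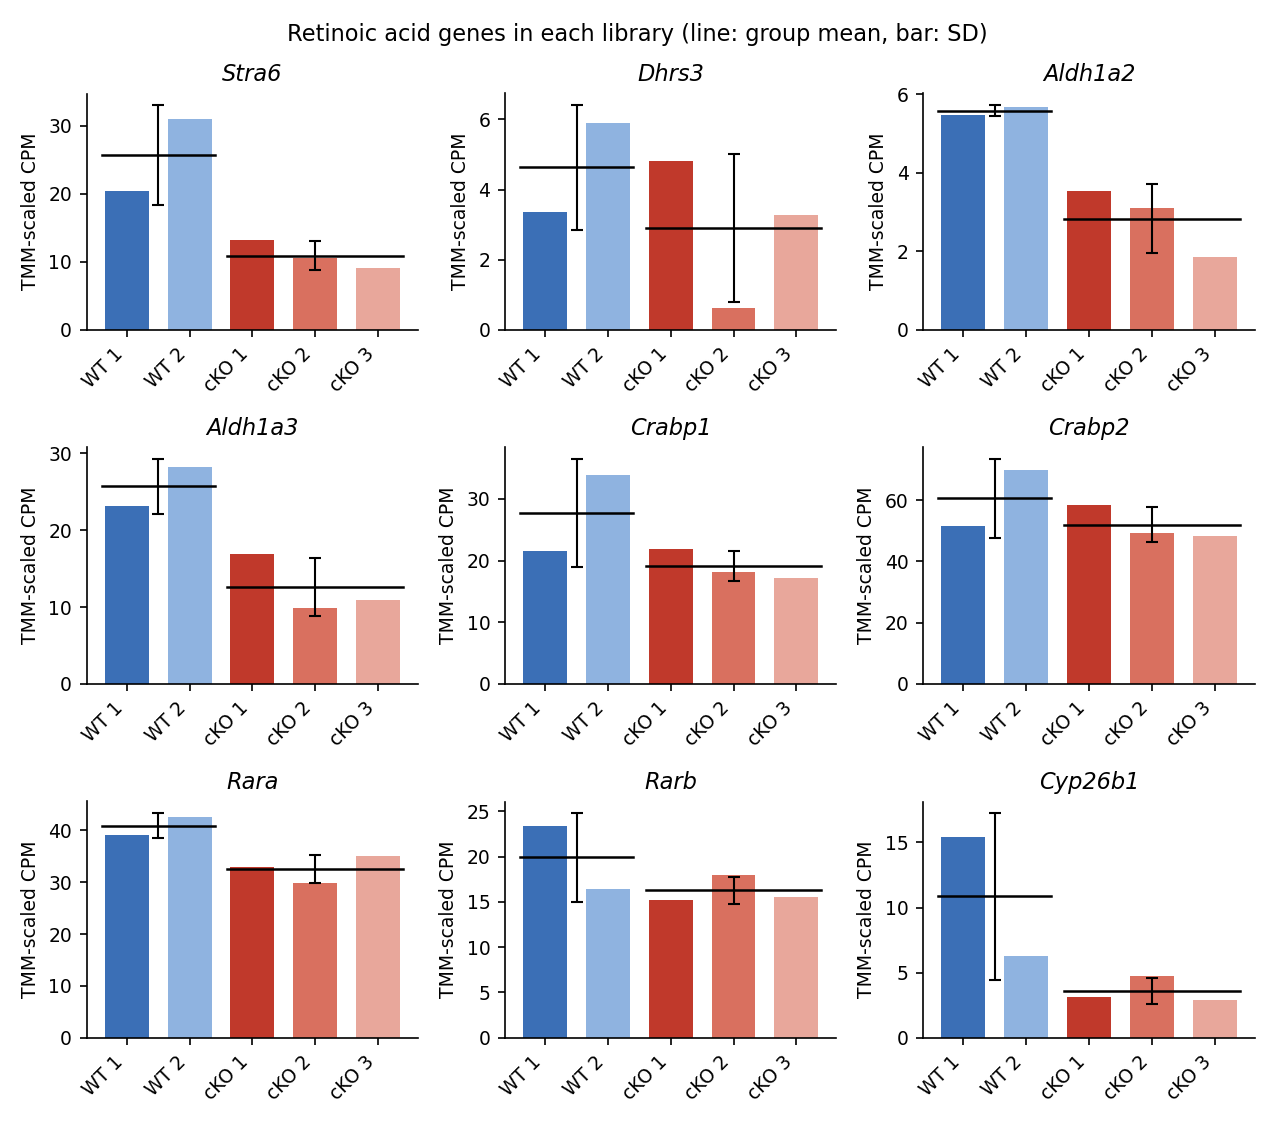
TMM-scaled CPM (vertical axes, from 0) of the 9 genes in 5 libraries, with the group mean as a line and the SD as an error bar (n = 2 wild type, labelled WT, and n = 3 EedcKO, labelled cKO). The EedcKO bars lie below both wild-type bars for Stra6, Aldh1a2, Aldh1a3, Rara and Cyp26b1, and the wild-type bars are in proportion furthest apart for Cyp26b1, at 15.4 and 6.30.

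Length-scaled levels spread widely between the genes. By the deposited TPM, a length-scaled unit, Crabp2 was first, Crabp1 next and Rara after them in each of the 5 libraries. Crabp2 averaged 221 ± 48.6 TPM in wild type (SD, n = 2) and 191 ± 22.1 in EedcKO (SD, n = 3). Crabp1 averaged 166 ± 54.0 and 116 ± 16.0 TPM (SD, n = 2 and 3), so that these neighbours overlapped in wild type. Rara followed with 45.1 ± 3.03 and 36.2 ± 2.88 TPM (SD, n = 2 and 3), clear of Crabp1 and of Aldh1a3 in every library. Aldh1a3, Rarb and Stra6 took the fourth to the sixth place in every library and changed order among themselves. Aldh1a2, Dhrs3 and Cyp26b1 filled the lowest places, between 1.02 and 13.8 TPM, also in changing order.

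**Figure D3:**
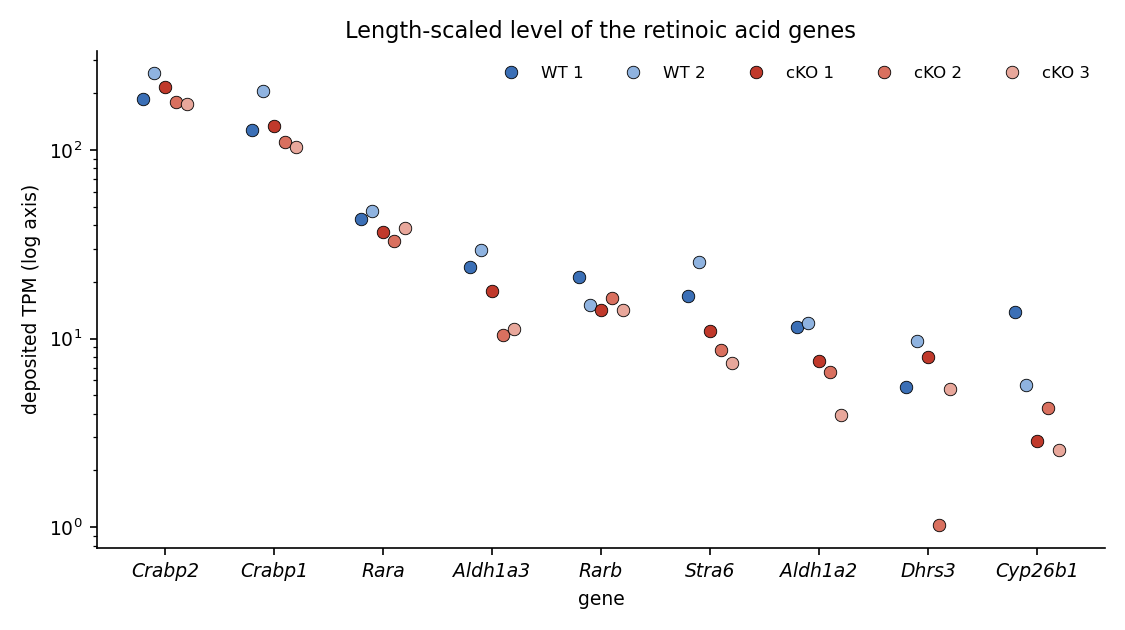
Deposited TPM (log axis) of the 9 genes, ordered by their mean, with a point per library (WT, wild type; cKO, EedcKO). Crabp2 and Crabp1 lie above 100 TPM in each library, and the lowest point is Dhrs3 in EedcKO 2 at 1.02.

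Uptake was the step with a call. Stra6 encodes the cell-surface receptor that takes retinol from its plasma carrier, and lies on chromosome 9 (58063788 to 58153996, plus strand, GENCODE M21). Wild type 1 gave 97 counts, the library labelled wild type 2 gave 152, and EedcKO 1, 2 and 3 gave 63, 51 and 44. These are 20.5, 30.9, 13.2, 10.6 and 9.02 CPM, so that no EedcKO library reached either wild type. The means were 25.7 ± 7.39 CPM (SD, n = 2) and 10.9 ± 2.09 CPM (SD, n = 3). Stra6 fell by 1.23 on the log2 scale (SE 0.25, edgeR adjusted p = 0.0427). The call was kept without wild type 1 (log2 fold change -1.52, edgeR adjusted p = 0.00985), and lost without the library labelled wild type 2 (-0.90, edgeR adjusted p = 0.0751). Without EedcKO 1, 2 and 3 the log2 fold change was -1.40, -1.21 and -1.11 and the call was lost (edgeR adjusted p = 0.0781, 0.145 and 0.201). Over the settings tried the adjusted p ran from 0.00693 with DESeq2 to 0.376 with embryo sex in the edgeR fit. The library with most Stra6 was also the one with most choroid plexus and surface epithelium RNA (524 and 158 CPM), and the one with least, EedcKO 3, had the least of both (24.8 and 11.5 CPM). The libraries between did not keep this order, as Stra6 was higher in wild type 1 than in EedcKO 1 and 2. Choroid plexus markers summed to 131 CPM in wild type 1 and 177 CPM in EedcKO 2. Epithelial markers summed to 18.6 CPM in wild type 1 and 20.0 CPM in EedcKO 1. All 7 tested choroid plexus markers had a negative log2 fold change (median -1.56), as had all 5 tested for surface epithelium (median -2.79). Of all tested genes 48.4% had a negative value. Among these markers, 1 of 7 for choroid plexus and 2 of 5 for surface epithelium were lower in every EedcKO library, as Stra6 was. This was so for 17.4% of all tested genes. The markers were Otx2 (68.3 and 110 CPM in wild type, 16.4 to 41.6 in EedcKO), Krt8 (3.37 and 8.54, then 0.205 to 1.04) and Cdh1 (4.01 and 13.4, then 0.414 to 1.88). The other tested markers overlapped between the groups, as Clic6 did at 15.2 CPM in wild type 1 and 39.9 CPM in EedcKO 2. The part of these tissues in the Stra6 values was not tested. Its annotated span overlaps Ccdc33 on the opposite strand, which had 9 to 17 counts.

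Dhrs3 encodes the reductase that returns retinaldehyde to retinol and so limits synthesis (chromosome 4, 144892827 to 144928209). Wild type 1 gave 16 counts, the library labelled wild type 2 gave 29, and EedcKO 1, 2 and 3 gave 23, 3 and 16. The groups overlapped. EedcKO 2 stood apart with 3 counts (95% Poisson interval 0.619 to 8.77), while EedcKO 1, at 4.80 CPM, lay within the wild-type range and EedcKO 3, at 3.28 CPM, just below the 3.37 CPM of wild type 1. Its log2 fold change was -0.67 (SE 0.66, edgeR adjusted p = 0.689), and it moved both ways: -1.25 without EedcKO 1, -1.03 without wild type 1, -0.21 without the library labelled wild type 2, -0.20 without EedcKO 2 and 0.05 with embryo sex in the fit.

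Both retinaldehyde dehydrogenases, which make retinoic acid, had lower counts in every EedcKO library than in either wild type. Aldh1a3 (chromosome 7, 66390890 to 66427517, minus strand) was read from wild type 1 with 110 counts, from the library labelled wild type 2 with 139, and from EedcKO 1, 2 and 3 with 81, 48 and 53. Its means were 25.7 ± 3.59 CPM (SD, n = 2) and 12.6 ± 3.79 CPM (SD, n = 3). EedcKO 1 was nearest to the wild type, at 16.9 CPM against 23.2 in wild type 1. The log2 fold change was -1.03 (SE 0.25), with an edgeR adjusted p = 0.0751 that missed the threshold. It passed with library size alone (edgeR adjusted p = 0.0494), DESeq2 (adjusted p = 0.0355) and no count filter (edgeR adjusted p = 0.0398). It also passed without wild type 1 (-1.18, edgeR adjusted p = 0.0398) and without EedcKO 1 (-1.31, edgeR adjusted p = 0.0484), and over all settings the adjusted p ran from 0.0355 to 0.454.

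Aldh1a2 (chromosome 9, 71215789 to 71296243), the enzyme of meninges and mesenchyme, was sparse. It had 26 and 28 counts in the wild-type libraries and 17, 15 and 9 in EedcKO 1, 2 and 3. The wild-type libraries lay close together, at 5.48 and 5.69 CPM, and the EedcKO libraries at 3.55, 3.10 and 1.85 CPM. EedcKO over wild type, the log2 fold change was -0.97 (SE 0.37, edgeR adjusted p = 0.229). At this depth the 95% Poisson intervals of wild type 1 (17.0 to 38.1 counts) and of EedcKO 1 (9.90 to 27.2) overlapped. The 12 meningeal markers, whose part in the Aldh1a2 values was not tested, went both ways. Foxc2 (-1.33), Foxd1 (-0.998) and Zic1 (-0.75) were lower in every EedcKO library, as Aldh1a2 was, and Lum (0.67) and Slc6a13 (0.36) were higher in every one, in log2 fold change. The edgeR adjusted p of the 12 ran from 0.0590 to 0.899. Their sum was 678 and 864 CPM in wild type and 539 to 1054 CPM in EedcKO. Zic1 alone held 306.9 and 263.5 CPM of it in wild type and 140.1 to 208.6 CPM in EedcKO. Whether the markers came from meninges alone was not tested. Per length, Aldh1a3 stood above Aldh1a2 in all 5 libraries, by 2.07 and 2.43 times in wild type and 1.57 to 2.89 times in EedcKO, so the proportion of the enzymes' TPM did not separate the groups. Aldh1a1, a further enzyme of the family, had at most 5 counts in any library.

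The binding proteins carry retinoic acid within the cell, CRABP2 to the receptors and CRABP1 in the cytoplasm. Crabp1 (chromosome 9, 54764748 to 54773110) had 102 counts from wild type 1, 167 from the library labelled wild type 2, and 105, 88 and 84 from EedcKO 1, 2 and 3. Wild type 1, at 21.5 CPM, lay inside the EedcKO range of 17.2 to 21.9 CPM. For Crabp1 the log2 fold change was -0.54 (SE 0.22, edgeR adjusted p = 0.273). It was -0.84 without wild type 1 (edgeR adjusted p = 0.0345) and -0.16 without the library labelled wild type 2 (edgeR adjusted p = 0.750). Crabp2 (chromosome 3, 87948666 to 87953376) showed the same arrangement, with 244 and 343 counts in wild type and 280, 238 and 236 in EedcKO. Crabp2 stood at -0.22 on the log2 fold change scale (SE 0.15, edgeR adjusted p = 0.544), and at 0.02 without the library labelled wild type 2. For both genes the highest library was thus the one with most epithelial and choroid plexus RNA, whose part was not tested. The TPM of Crabp2 over Crabp1 was 1.45 and 1.25 in wild type and 1.62 to 1.70 in EedcKO.

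For the receptors Rara and Rarb the fold changes were nearer to 0 than for the enzymes, a difference that was not tested. Rara (chromosome 11, 98927818 to 98974942), a receptor of nearly all tissues, had 186 and 210 counts in wild type and 158, 144 and 171 in EedcKO 1, 2 and 3. The groups did not overlap, at 41.0 ± 2.46 CPM (SD, n = 2) and 32.6 ± 2.65 CPM (SD, n = 3). The log2 fold change was -0.33 (SE 0.13, edgeR adjusted p = 0.230), and it ran from -0.40 to -0.26 with single libraries left out. Rarb (chromosome 14, 16430839 to 16819156, minus strand), the receptor gene whose promoter site is printed above and a classical target of retinoic acid, had 111 and 81 counts in wild type and 73, 87 and 76 in EedcKO. Wild type 1 was highest, at 23.4 CPM, and the library labelled wild type 2, at 16.5 CPM, lay within the EedcKO range of 15.2 to 18.0 CPM. The log2 fold change was -0.29 (SE 0.20, edgeR adjusted p = 0.545), with -0.03 without wild type 1 and -0.52 without the library labelled wild type 2 (edgeR adjusted p = 0.185). The Rarb span overlaps Top2b, a topoisomerase gene with 2061 to 2690 counts, on the opposite strand. As the sources used here do not give the use of strand in counting, reads of the pair cannot be told apart where they overlap.

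Cyp26b1, whose enzyme hydroxylates retinoic acid for removal, had the largest fold change of the 9 in size and in proportion the widest gap between wild-type libraries, 2.44 times. It lies on chromosome 6 (84571414 to 84593908, minus strand). Wild type 1 gave 73 counts, with a 95% Poisson interval of 57.2 to 91.8, and the library labelled wild type 2 gave 31, with 21.1 to 44.0. EedcKO 1, 2 and 3 gave 15, 23 and 14. The means were 10.9 ± 6.43 CPM (SD, n = 2) and 3.59 ± 1.02 CPM (SD, n = 3). No EedcKO library reached either wild-type value, but the library labelled wild type 2, at 6.30 CPM, was nearer to EedcKO 2, at 4.76 CPM, than to wild type 1, at 15.4 CPM. The log2 fold change was -1.59 (SE 0.44, edgeR adjusted p = 0.107). It passed without the library labelled wild type 2 (-2.09, edgeR adjusted p = 0.00996) and was -0.83 without wild type 1 (edgeR adjusted p = 0.290). Cyp26b1 and Rarb, like Eed, were highest in wild type 1, whereas the other 7 genes were highest in the library labelled wild type 2.

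**Figure D4:**
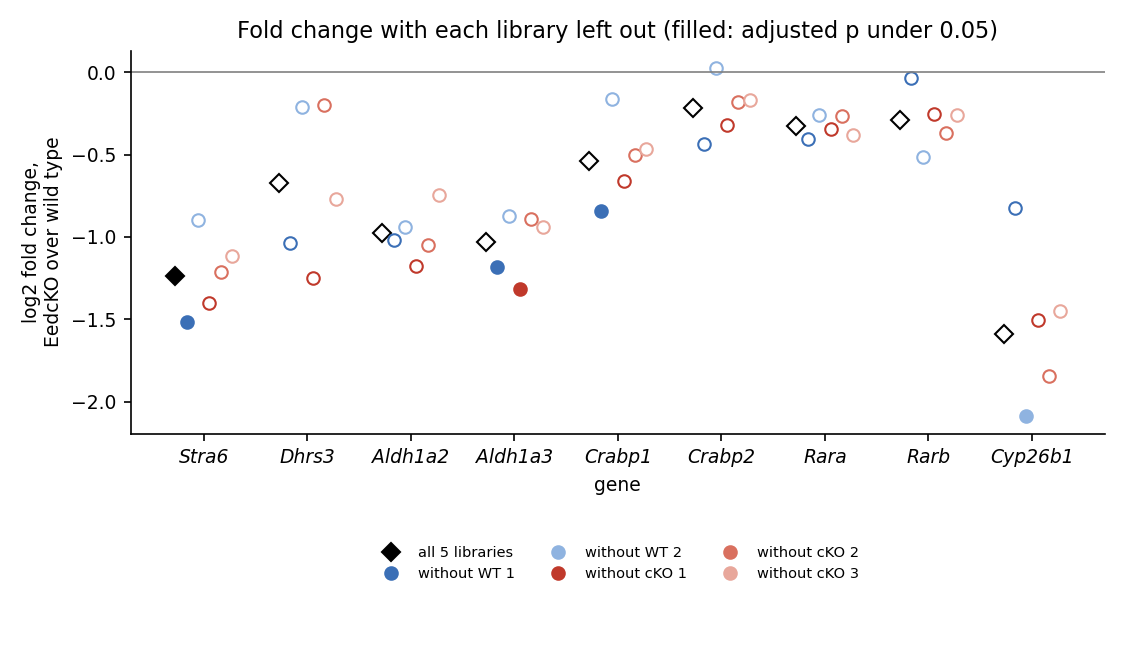
Log2 fold change, EedcKO over wild type, of each gene with all 5 libraries (diamonds) and with each library left out (circles), filled where the edgeR adjusted p is under 0.05 (WT, wild type; cKO, EedcKO). All values but that of Crabp2 without the library labelled wild type 2 (0.02) lie below 0, and the filled symbols belong to Stra6, Aldh1a3, Crabp1 and Cyp26b1 in different fits.

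Which genes passed thus depended on the wild-type library kept. Without wild type 1 the genes called lower were Stra6, Aldh1a3 and Crabp1, in a fit where 7.02% of genes were called. Without the library labelled wild type 2, only Cyp26b1 of the 9 was called, where 6.2% of genes were. Without EedcKO 1 it was Aldh1a3 (1.89% of genes called). In edgeR none of the 9 passed without EedcKO 2 or without EedcKO 3, with 3 and 4 at an unadjusted p under 0.05, where 0.606% and 0% of all genes passed. For Stra6, Aldh1a2, Aldh1a3, Rara and Cyp26b1, whose groups did not overlap, leaving out a library could not turn the direction.

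Other tools and settings called 0 to 2 of the 9, all as lower. Stra6 alone was called with RLE size factors (3.37% of genes called), with robust estimation off (3% of genes) and with a filter at 1 CPM (2.91%). Stra6 and Aldh1a3 were called with library size alone (4.83%), with DESeq2 (4.85%) and with no count filter (3.36%). None was called with limma-voom, where 2.85% of genes were and 5 of the 9 had an unadjusted p under 0.05. The same held for limma on log2 TPM at pseudocounts of 1 and 0.1 and unfiltered, where 1.84%, 1.76% and 0.927% of genes were called. With the replicate number as a block, or with embryo sex, edgeR called 0% of all genes, and 3 and 2 of the 9 had an unadjusted p under 0.05.

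The rest of the pathway was read from 54 further genes listed by function, of which 35 had enough counts for the test. Of these 1 fell and 1 rose, both from the list of genes known to respond to retinoic acid, and 20 of 35 had a negative value, beside 2.17% of all tested genes called lower, 1.04% called higher and 48.4% negative. Their median log2 fold change was -0.02. Of retinol uptake, storage and oxidation genes, 10 of 22 were tested and none passed in edgeR, DESeq2 or limma-voom, with 1 at an unadjusted edgeR p under 0.05. That gene was Dhrs4, a retinal reductase (log2 fold change 0.39, SE 0.17, edgeR adjusted p = 0.281), followed by the retinol dehydrogenase Rdh13 (-0.14, edgeR adjusted p = 0.586). Rdh10, which makes the retinaldehyde used for synthesis in the embryo, had 20.9 and 29.1 CPM in wild type and 23.4 to 26.3 in EedcKO. This gene, named after its values were seen, overlapped between the groups.

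In the degradation and binding list only Fabp5, a fatty acid binding protein that also binds retinoic acid, was tested of 3 (log2 fold change -0.06, edgeR adjusted p = 0.811). Cyp26a1, with the promoter site above, had no counts from wild type 1, 4 from the library labelled wild type 2 and 9, 0 and 4 from EedcKO 1, 2 and 3, and Cyp26c1 gave at most 2. None of 5 tested receptors passed in edgeR, DESeq2 or limma-voom, and none had an unadjusted edgeR p under 0.05. The smallest p among them was that of Rxrg (-0.86, SE 0.48, edgeR adjusted p = 0.422), an RXR partner that was highest in wild type 1, at 11.4 CPM. The library labelled wild type 2, at 4.47 CPM, lay inside the EedcKO range of 2.67 to 5.38. Rxra came next (-0.13, edgeR adjusted p = 0.720). Of 7 receptor cofactors, corepressors and coactivators that read the receptor's state, none passed in these 3 tools and none had an unadjusted edgeR p under 0.05 (Ncoa3 -0.19 and Zfp423 -0.23, edgeR adjusted p = 0.423 and 0.452).

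Rarg, the remaining RAR receptor, set wild type 1 apart and is named after its values were seen. Wild type 1 gave 44 counts, the library labelled wild type 2 gave 142, and EedcKO gave 91, 105 and 94. Its log2 fold change was 0.06 with all libraries (edgeR adjusted p = 0.963), 1.11 without the library labelled wild type 2 (edgeR adjusted p = 0.0259) and -0.55 without wild type 1 (edgeR adjusted p = 0.105). Per length, Rarg stood at 0.49 of Rarb for wild type 1, at 2.17 times Rarb for the library labelled wild type 2, and at 1.49 to 1.54 times in EedcKO. The proportion of these 2 receptor genes in the library labelled wild type 2 was thus nearer to EedcKO than to wild type 1. Rara over Rarg went the same way (4.13 in wild type 1, 1.44 in that library, 1.34 to 1.78 in EedcKO). This ratio rests on the same Rarg counts, lowest in wild type 1, so it is no separate observation. In Rara over Rarb (2.02, 3.13, then 2.0 to 2.71) and Crabp2 over Crabp1 (1.45, 1.25, then 1.62 to 1.70) wild type 1 was the nearer to EedcKO.

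Of genes known to respond to retinoic acid, 12 of 17 were tested, 1 fell and 1 rose, where 3.2% of all tested genes were called. Nr2f2, a nuclear receptor of ventral and caudal forebrain, had 1241 and 1203 counts in wild type and 379, 490 and 284 in EedcKO. Both wild-type libraries were high and the EedcKO libraries low, at 253 ± 12.0 CPM (SD, n = 2) and 79.6 ± 21.6 CPM (SD, n = 3), and it fell by 1.67 on the log2 scale (SE 0.20, edgeR adjusted p = 0.0112). Ppp1r1b, the dopamine-signalling phosphoprotein of striatal neurons, had 37 and 51 counts in wild type and 106, 174 and 161 in EedcKO, and rose by 1.74 (SE 0.26, edgeR adjusted p = 0.0202). Without EedcKO 3, where 0% of genes passed, both calls were lost at log2 fold changes of -1.49 and 1.67 (edgeR adjusted p = 0.0781 and 0.138). Without EedcKO 2 Ppp1r1b stood at 1.6 (edgeR adjusted p = 0.0741). Ret, a receptor of neurotrophic factors named after its values were seen, gave 29 and 47 counts in wild type and 11, 15 and 7 in EedcKO (-1.77, edgeR adjusted p = 0.0641). Ret passed with library size alone (edgeR adjusted p = 0.0430), DESeq2 (adjusted p = 0.0499) and no count filter (edgeR adjusted p = 0.0421). It missed with limma-voom (adjusted p = 0.0723). Nr2f1, the paralog of Nr2f2, had overlapping groups (-0.05, edgeR adjusted p = 0.902). Summed markers of the lateral ganglionic eminence and striatum were 753 and 526 CPM in wild type and 630 to 678 CPM in EedcKO, over members that went both ways. Foxp1 (0.39) and Ikzf1 (0.93) were higher in every EedcKO library, as Ppp1r1b was, and Isl1 was at -1.02 with overlapping groups. The edgeR adjusted p of the 6 ran from 0.188 to 0.929, and their part in the Ppp1r1b values was not tested. Hoxb1, Cdx1 and Stra8, targets of retinoic acid outside the forebrain, had no counts in any library.

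**Figure D5:**
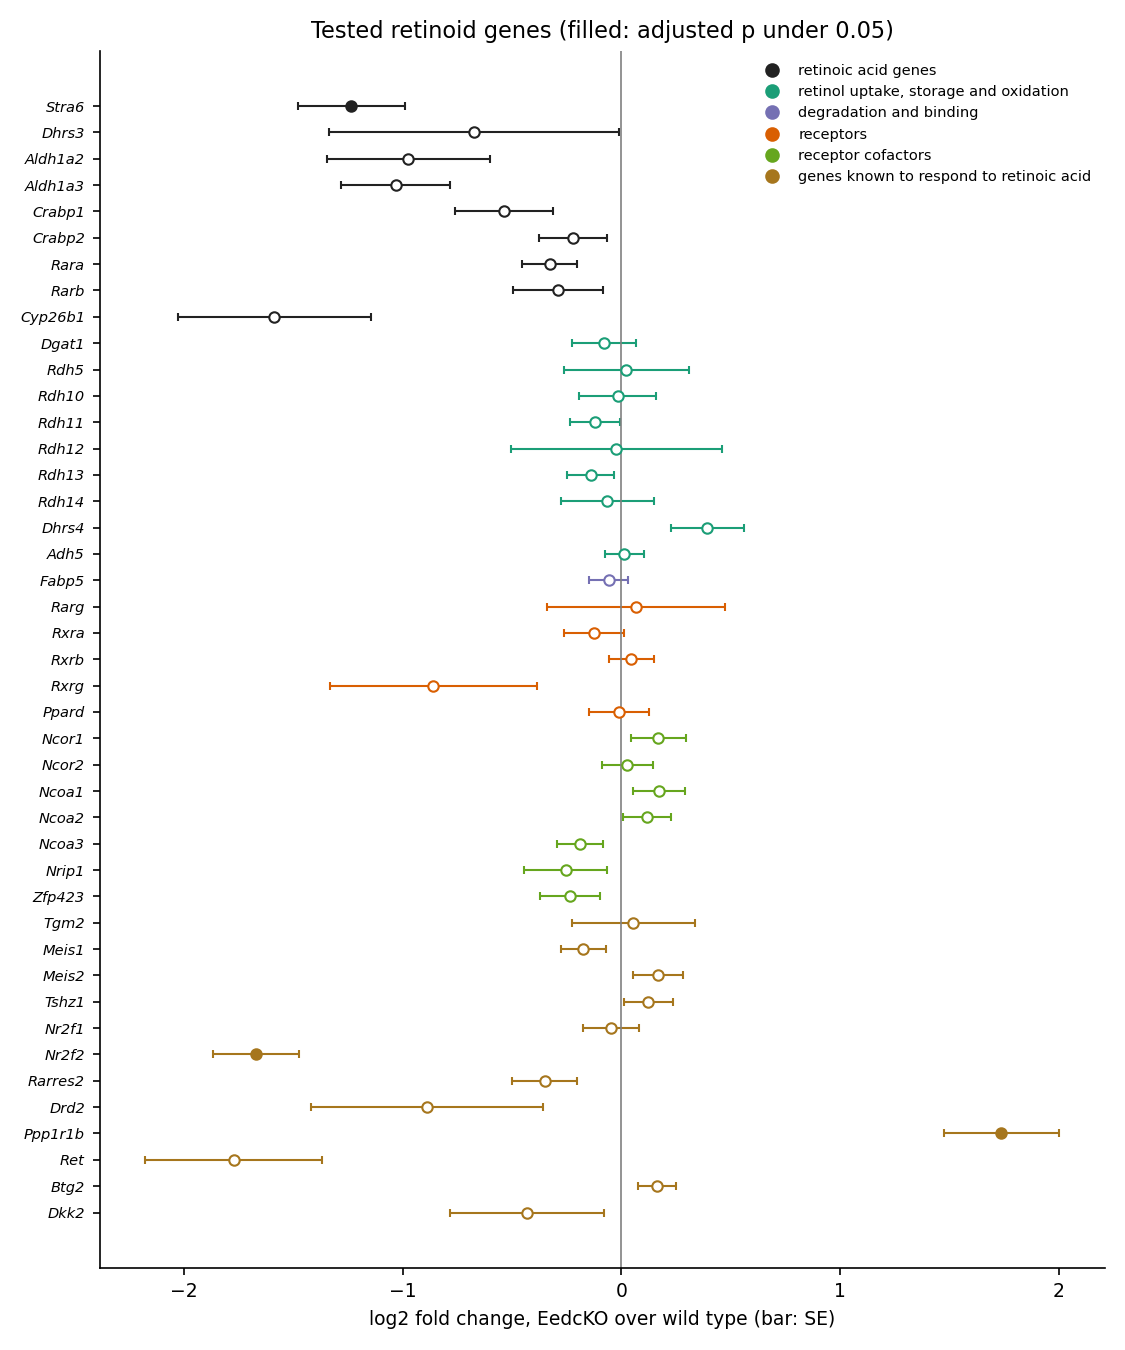
Log2 fold change with SE, EedcKO over wild type, for the 9 genes (black) and for tested genes of the other retinoid lists (colours), filled where the edgeR adjusted p is under 0.05. The 9 lie left of 0, from -0.22 to -1.59, and the filled symbols are Stra6, Nr2f2 and Ppp1r1b.

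Genes with the most similar profile were found for the 5 members whose log2(CPM + 1) spanned at least 1 unit between libraries, by the root mean square difference of centred values over 5 libraries. For Stra6 they were Spag8 (difference 0.0751) and Stk32c (0.0818), and Stk32c itself was called lower (log2 fold change -1.18, edgeR adjusted p = 0.0276). For Aldh1a3 they were Dpyd (0.0824) and the chemokine gene Cx3cl1 (0.0996, called lower at -1.13, edgeR adjusted p = 0.0314). Aldh1a2 was nearest to Nxph1 (0.0482) and the neurofilament gene Nefh (0.0592), neither called. Cyp26b1 was nearest to the adhesion molecule gene Chl1 (0.119, called lower at -1.34, edgeR adjusted p = 0.0396) and the imprinted gene Zim1 (0.170). Chl1 stood at 223 CPM for wild type 1, 124 CPM for the library labelled wild type 2, and between 60.7 and 80.9 CPM in EedcKO. Dhrs3 had no close match, the nearest being H2-Q6 at 0.193, and H2 genes share reads with near-identical copies. These genes were chosen for likeness to members with a negative fold change, so their calls as lower follow in part from the choice. Of all tested genes 2.17% were called lower. With 5 libraries such likeness is a description only.

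The neighbours of the 9 genes on the chromosomes were also read. Within 200 kb of the 9 genes there were 47 other tested genes, of which none was called in edgeR and 6 had an unadjusted p under 0.05, and 24 of 47 had a negative value. Over all tested genes these shares were 3.2%, 17.2% and 48.4%. Stra6 had 9 of these neighbours, with a median log2 fold change of -0.04.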

How the data were processed

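Polyadenylated forebrain RNA of 5 samples was sequenced after Trizol extraction, with BGISEQ-500 libraries, per the labels' protocols. Reads were aligned with HISAT2 2.2.0 to mm10, per the submitters' processing notes. The sources used here do not give the counting tool, its annotation, its use of strand or the handling of duplicates. Whole-number gene counts, without normalization, and TPM, a length-scaled unit with 1 total for every column, are as the authors deposited them. The labels do not say that each sample came from its own embryo. Xist and Y-linked counts put EedcKO 1 in another embryo than EedcKO 2 and 3, and for the other libraries of a group the spread behind the p-values may in part be technical.

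From the counts, 28277 rows without a symbol (2.01% to 2.16% of counts) and 13 mitochondrially encoded genes were left out. Where several rows shared a symbol, the row holding at least 99% of the counts kept it. The fit used R 4.3.3 and edgeR 4.0.16 (filterByExpr, TMM, glmQLFit robust, glmQLFTest on the group), checked on simulated counts. P-values had Benjamini-Hochberg adjustment over 13989 genes and a threshold of 0.05. An SE is the fold change over the square root of F. Poisson intervals cover counting error only. Limma 3.58.1 and DESeq2 1.42.0 gave alternatives. Coordinates are from GENCODE M21 (mm10) and promoters from RefSeq, 1-based.

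The 9 genes, the lists and the tests were chosen with earlier results of these data known. Named genes were the 9, up to 4 called genes per retinoid list or the 2 of smallest p, the 2 most alike per gene, and Eed. The neighbour count and the motif search were added after the data were seen. Some listed genes enter the counts over their list and are not reported here by name.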

Additional observations from a re-analysis of the deposited data

How the results depend on the processing

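Of the 9 genes, 1 passed in edgeR with all libraries. The count was 2 with library size alone, with DESeq2 and with no count filter. It was 0 with limma-voom, with each of the 3 limma fits of log2 TPM, with the replicate block and with embryo sex as a covariate. At an unadjusted p under 0.05 those fits had 5, 5, 5, 5, 3 and 2 of the 9. With a library left out it ran from 0 to 3. Over all genes the count of 448 became 675 with library size alone and 679 with DESeq2. It became 291, 278 and 174 with log2 TPM at pseudocounts of 1 and 0.1 and unfiltered, 0 with the replicate block, 0 with embryo sex, and 0 to 1012 with a library left out. Of other retinoid genes 2 passed, and 3 with library size alone, with DESeq2 and with no count filter, where Ret was added. That count was 0 with the replicate block or embryo sex (4 and 4 at an unadjusted edgeR p under 0.05). It ran from 0 to 2 with an EedcKO library left out.

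Stra6 lost its call with limma-voom (log2 fold change -1.22), log2 TPM at pseudocounts of 1 (-1.13) and 0.1 (-1.20) and unfiltered (-1.13), the replicate block (-1.09) and embryo sex (-0.96). It ran from -1.52 to -0.90 with a library left out. Aldh1a3 gained a call with library size alone (-1.05), DESeq2 (-1.04) and no count filter (-1.04), and ran from -1.31 to -0.88 with a library left out. Those ranges were -0.84 to -0.16 for Crabp1, -0.44 to 0.0235 for Crabp2, positive without the library labelled wild type 2, and -2.09 to -0.83 for Cyp26b1. Dhrs3 turned to 0.049 with embryo sex. Eed turned to 0.0432 without wild type 1 and gained a call without the library labelled wild type 2 (-0.75). Rarg turned to -0.0085 with embryo sex and to -0.55 without wild type 1, and gained a call without the library labelled wild type 2 (1.11). The cause of these changes was not tested.

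The replicate numbers do not pair the samples by any label. Deviations from the group means correlated at -0.01 between wild type 1 and EedcKO 1 and at 0.13 between the library labelled wild type 2 and EedcKO 2. Wild type 1 and EedcKO 3, of unlike number, also gave 0.13. With 2 wild-type libraries the deviations of 1 are the negative of the other's, so these values cannot decide on a pairing. In the fit with the replicate block EedcKO 3, alone with its number, adds nothing to the group term. As no wild type was male, the fit with embryo sex compares EedcKO 1 alone with the wild type. Fits that left 1 wild-type library assume that it varies like EedcKO.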
